A study of Mus musculus with 8 samples.

Results

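The 7 genes described here, Aqp4, Kcnj10, Dmd, Dtna, Sntb1, Mlc1 and Hepacam, were chosen by name as genes of the astrocyte endfoot anchoring machinery. Each of the 7 symbols matched 1 gene in the files. Single cells were dissociated from the cortical plate of 8-week-old mice, and unique molecular identifiers (UMIs, tags that count RNA molecules) were counted per gene and cell. The groups were Lama4-/- mice (Lama4 encodes the laminin alpha 4 chain), with WT mice as their control, and Tek-Cre:Lama5-/- mice with a separate WT control. Tek-Cre removes Lama5 in the endothelial lineage, and Tek-Cre lines also recombine in part of the blood lineage. Brains of 3 mice were pooled per group and 2 libraries were deposited per group, so tests compare pools and their error leaves out the spread between mice. The 2 deposited Lama4-/- files were identical and were counted as 1 library, which left 7 libraries.

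Endfeet are the astrocyte processes that wrap brain vessels. There, the dystrophin complex (dystrophin from Dmd, alpha-dystrobrevin from Dtna, syntrophins such as beta-1-syntrophin from Sntb1) links dystroglycan, a receptor for laminins of the vascular basement membrane, to the cell interior. This complex holds the water channel aquaporin-4 (Aqp4) and the potassium channel Kir4.1 (Kcnj10) at the membrane facing the vessel. MLC1 (Mlc1) and GlialCAM (Hepacam) form a second endfoot complex at astrocyte junctions, and GlialCAM also brings the chloride channel ClC-2 to oligodendrocytes.

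The 7 libraries held 35479306 to 48314458 UMIs. Of 56961 barcodes, 47239 cells were kept, and pairs of libraries shared at most 22 barcodes. In endothelial-like cells Lama4 stood at 47.5 and 43.2 CPM (UMIs of a gene per 1000000 UMIs of the class) in the WT libraries and at 1 count in the Lama4-/- library. Lama5 stood at 39.2 and 38.0 CPM in its WT libraries and at 20.2 and 21.7 CPM in the Tek-Cre:Lama5-/- libraries. A 3-prime tag outside the deleted part would still be counted. Whether the remaining Lama5 counts are of this kind was not tested. The clusters were rebuilt from the counts without the 7 genes, and 1904 cells in 3 clusters carried the fixed astrocyte markers and were called astrocyte-like. Values by class are sums over cells, 1 per library, and are not divided by gene length. Poisson intervals cover counting error only.

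The annotation (GENCODE M21, GRCm38) places Kcnj10 on the plus strand at chr1:172341210-172374085, Hepacam on the plus strand at chr9:37367351-37386575, Mlc1 on the minus strand at chr15:88955884-88979007, Sntb1 on the minus strand at chr15:55636388-55906949 and Dmd on the plus strand at chrX:82948870-85206141. The Hepacam and Mlc1 starts of RefSeq lie inside these annotated genes, so the windows shown for them overlap the genes as annotated. Dmd covers 2257.3 kb and has 2 start sites among the RefSeq promoter windows. The 3-prime counts do not tell which start was used. The 250 bases before each RefSeq start ( GRCm38.p6, 5′ to 3′ on the gene's strand, CG pairs in capitals) are shown for the genes with different class patterns described next, and for both Dmd starts.
Mlc1 (chr15:88978554-88978803): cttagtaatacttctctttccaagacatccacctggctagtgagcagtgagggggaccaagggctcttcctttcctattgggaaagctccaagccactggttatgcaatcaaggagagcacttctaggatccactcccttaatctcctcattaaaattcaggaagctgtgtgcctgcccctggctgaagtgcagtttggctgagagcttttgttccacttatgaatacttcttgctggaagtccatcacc
Kcnj10 (chr1:172340960-172341209): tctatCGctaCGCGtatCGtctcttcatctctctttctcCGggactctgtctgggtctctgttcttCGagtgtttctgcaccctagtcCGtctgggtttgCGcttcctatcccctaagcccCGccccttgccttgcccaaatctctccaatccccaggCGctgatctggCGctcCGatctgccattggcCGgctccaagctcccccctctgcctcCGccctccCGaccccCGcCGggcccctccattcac
Hepacam (chr9:37367356-37367605): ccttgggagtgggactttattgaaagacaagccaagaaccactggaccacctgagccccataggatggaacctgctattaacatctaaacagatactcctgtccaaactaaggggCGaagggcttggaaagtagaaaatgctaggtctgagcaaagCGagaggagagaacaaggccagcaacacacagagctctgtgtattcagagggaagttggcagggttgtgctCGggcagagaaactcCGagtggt
Dmd, first start (chrX:82948620-82948869): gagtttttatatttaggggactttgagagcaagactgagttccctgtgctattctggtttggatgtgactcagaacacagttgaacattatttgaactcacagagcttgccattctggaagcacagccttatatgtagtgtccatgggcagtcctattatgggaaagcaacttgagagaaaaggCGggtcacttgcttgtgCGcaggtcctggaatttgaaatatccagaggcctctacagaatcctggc
Dmd, second start (chrX:85048045-85048294): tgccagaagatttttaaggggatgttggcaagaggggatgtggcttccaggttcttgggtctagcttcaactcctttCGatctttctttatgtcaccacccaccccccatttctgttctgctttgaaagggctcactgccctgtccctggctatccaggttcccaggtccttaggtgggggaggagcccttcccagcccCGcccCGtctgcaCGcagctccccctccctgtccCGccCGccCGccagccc
The Mlc1 window held 0 CG pairs, the Kcnj10 window 17, the Hepacam window 4, and the Dmd windows 2 and 7. The median over all 32536 windows was 6. Letters of the NFI half-site TTGGCA, on either strand, occurred in the Hepacam window, 39 bases before the start, and in the second Dmd window, 226 bases before the start. These letters occurred in 12.3% of all windows. The SOX letters ACAAAG or ACAATG, on either strand, occurred in none of the 5 windows and in 25% of all windows. A match of letters is a description of the window and not a binding site.

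Among cell classes, Aqp4 and Mlc1 were found mainly in astrocyte-like and ependymal-like cells. Of 11113 Aqp4 UMIs, 65.9% lay in astrocyte-like and 27.0% in ependymal-like cells, and of 6924 Mlc1 UMIs these classes held 55.2% and 36.0%. Over all libraries, oligodendrocyte-like cells held 83.9% of Kcnj10 and 71.3% of Hepacam UMIs. Dmd and Sntb1 UMIs lay mostly in smooth muscle-like and pericyte-like cells. These classes held 43.4% and 19.6% of Dmd UMIs, and 68.8% and 15.7% of Sntb1 UMIs. Dtna was divided between astrocyte-like (44.4%) and oligodendrocyte-like cells (36.3%). These pooled shares move with the number of cells captured per class. For Hepacam, Dtna and Mlc1 the order of the classes compared here differed between the experiments, and for Kcnj10 it did not. In the Lama4 experiment Hepacam had 2054 counts in astrocyte-like and 768 in oligodendrocyte-like cells, against 1049 and 10757 in the Lama5 experiment. Dtna had 2925 and 298 counts in the former and 1530 and 3343 in the latter, and Kcnj10 467 and 542 in the former and 397 and 10092 in the latter. For Mlc1, astrocyte-like and ependymal-like cells had 3074 and 1102 counts in the Lama4 experiment and 751 and 1390 in the Lama5 experiment. A class compared with other classes is described without a test, since the classes come from the same cells.

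**Figure D1:**
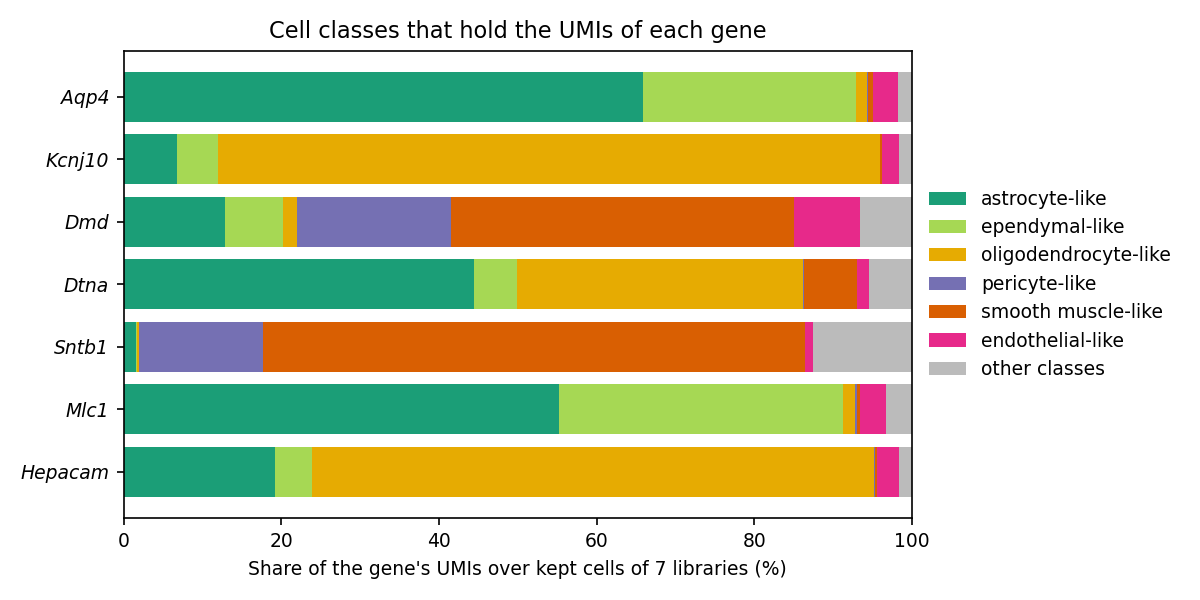
Share (%) of each gene's UMIs, pooled over the kept cells of 7 libraries of both experiments, held by each cell class. Astrocyte-like cells held most UMIs of Aqp4 (65.9%) and Mlc1 (55.2%), while oligodendrocyte-like cells held 83.9% of Kcnj10 UMIs and smooth muscle-like cells held 68.8% of Sntb1 UMIs.

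The channels, Aqp4 and Kcnj10, differed in their order over classes. Aqp4 stood at 945 CPM over all astrocyte-like cells and at 824 CPM over ependymal-like cells, which line the ventricles. In the libraries, astrocyte-like Aqp4 was 981 and 982 CPM in the WT of the Lama4 experiment, 954 CPM in Lama4-/-, 1045 and 1010 CPM in the WT of the Lama5 experiment, and 536 and 644 CPM in Tek-Cre:Lama5-/-. The ependymal-like libraries ran from 744 to 922 CPM, within the range of the astrocyte-like libraries. This overlap came from the Tek-Cre:Lama5-/- libraries, whose astrocyte-like levels lay below every ependymal-like library. All other astrocyte-like libraries, from 954 to 1045 CPM, lay above every ependymal-like library. Pericyte-like cells followed at 5.3 CPM. Kcnj10 was highest in oligodendrocyte-like cells, the myelinating cells that also carry Kir4.1, at 337 CPM, then in ependymal-like cells at 180 CPM and astrocyte-like cells at 111 CPM. In every library the oligodendrocyte-like Kcnj10 level exceeded the astrocyte-like level.

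Of the dystrophin complex members, Dmd was highest in pericyte-like cells at 665 CPM, followed by smooth muscle-like cells at 408 CPM, ependymal-like cells at 300.5 CPM and astrocyte-like cells at 245 CPM. The pericyte-like libraries ran from 423 to 833 CPM and the smooth muscle-like libraries from 375 to 452 CPM, so the ranges of these mural cells of the vessel wall overlapped. Endothelial-like cells stood at 10.3 CPM. Dtna was highest in astrocyte-like cells at 574 CPM, followed by ependymal-like cells at 153 CPM and oligodendrocyte-like cells at 115 CPM. Sntb1, in contrast, had 4.1 CPM in astrocyte-like cells, against 88.2 CPM in smooth muscle-like and 72.6 CPM in pericyte-like cells. The astrocyte-like Sntb1 level rested on 1 to 11 counts per library.

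The second complex was divided. Mlc1 stood at 684 CPM in ependymal-like cells and 493 CPM in astrocyte-like cells, and at 3.4 CPM in oligodendrocyte-like cells. Hepacam stood at 400 CPM in astrocyte-like cells and 365 CPM in oligodendrocyte-like cells. The Hepacam ranges over libraries overlapped between these classes, from 277 to 427 CPM and from 250 to 379 CPM.

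In endothelial-like cells, the members other than Dmd stood between 0.17 CPM (Sntb1) and 3.7 CPM (Hepacam), with Aqp4 at 3.0 CPM and Mlc1 at 1.9 CPM. In the Lama5 experiment the endothelial-like Aqp4 level was 0.379% of the astrocyte-like level, and the 12 astrocyte markers had a median of 0.379%. Dmd in endothelial-like cells was 3.77% of the astrocyte-like level in that experiment and 5.0% in the Lama4 experiment. Both were above that median and above the highest marker in either experiment. Dmd was higher in pericyte-like (665 CPM) and smooth muscle-like cells (408 CPM) than in astrocyte-like cells (245 CPM). The part of these mural cells in the endothelial-like value was not tested. Kcnj10 (2.33%) and Hepacam (1.27%) were also above the marker median in the Lama5 experiment, where oligodendrocyte-like cells were 11.1% to 15.5% of kept cells. In the Lama4 experiment these values were 0.648% and 0.476%, above a marker median of 0.316% there, and oligodendrocyte-like cells were 0.956% to 1.98% of kept cells.

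**Figure D2:**
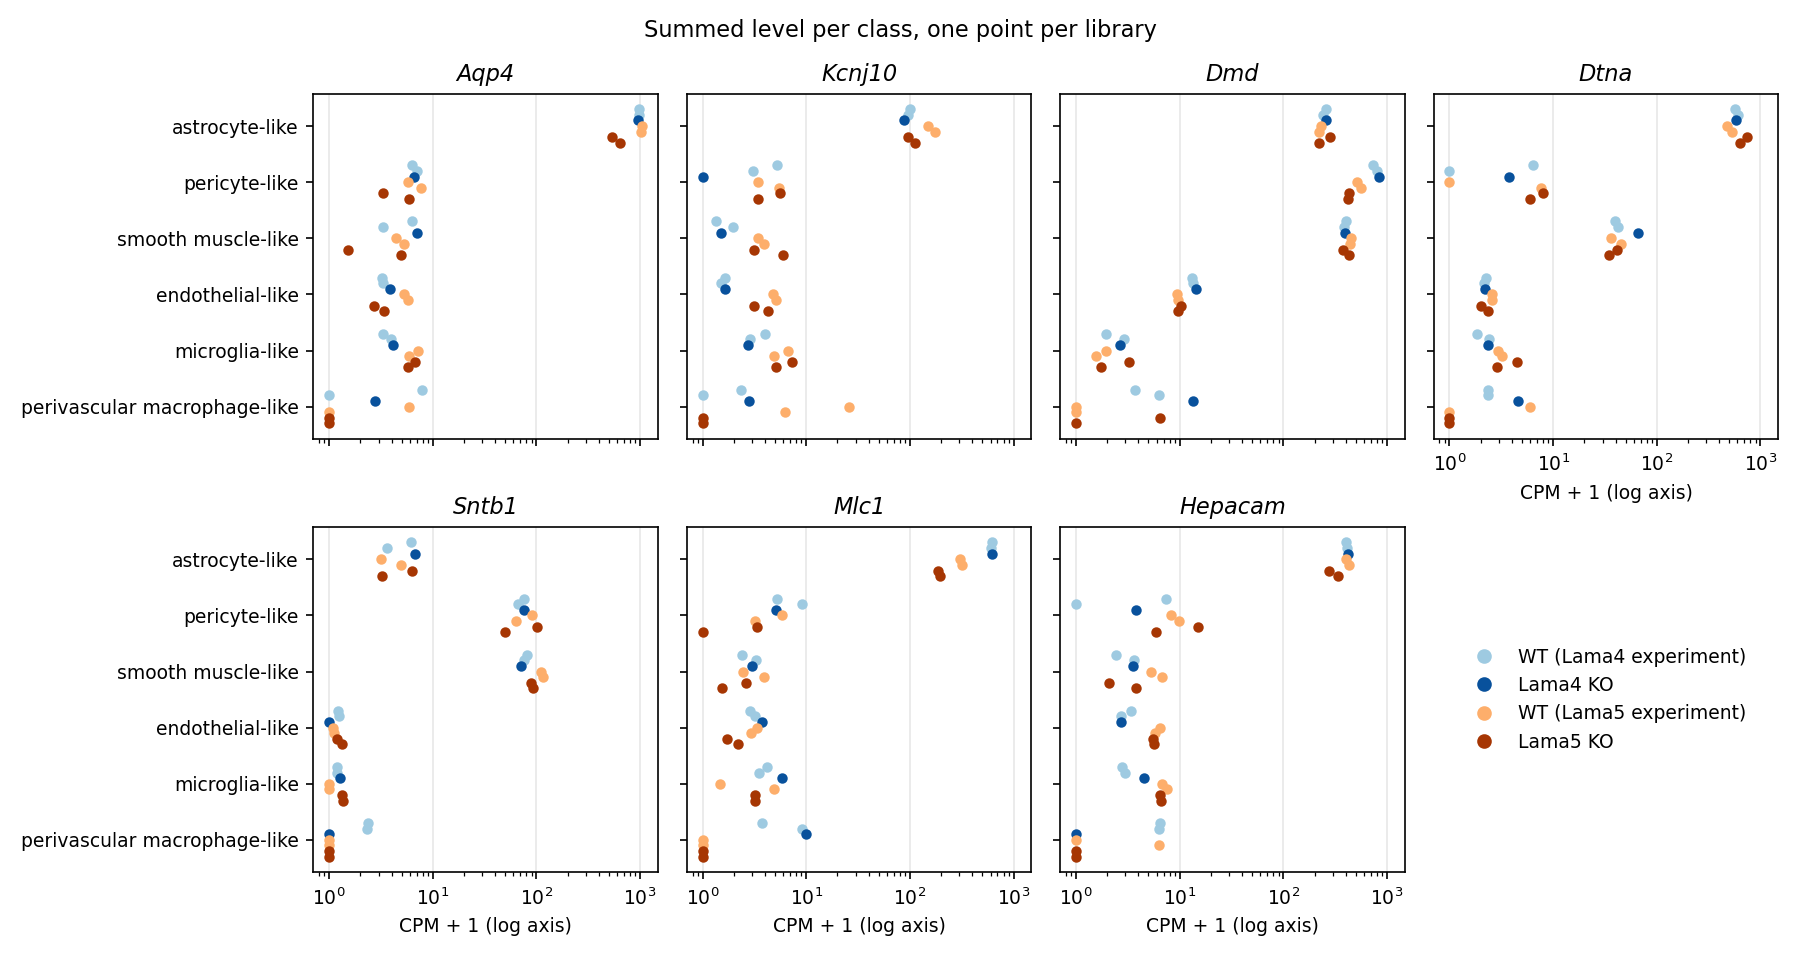
Level of each gene (CPM + 1, log axis) summed per class, 1 point per library, for the 6 classes that reached 50 cells in each library. Aqp4, Mlc1, Hepacam, Kcnj10 and Dtna are highest in astrocyte-like cells among these 6 classes, while Dmd and Sntb1 are highest in pericyte-like and smooth muscle-like cells.

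Genes with the most similar pattern were ranked over 42 sums (6 classes in 7 libraries) by Pearson's r of log2(CPM + 1). The ranking is a description, since sums share libraries and depth. The 6 classes had at least 50 cells in each library, which left out oligodendrocyte-like and ependymal-like cells. Kcnj10 and Hepacam were high in oligodendrocyte-like cells, and Aqp4 and Mlc1 in ependymal-like cells, so r does not cover these levels. Aqp4 was closest to Acsbg1 (r = 0.97), an acyl-CoA synthetase and astrocyte marker, then St6galnac5 and Trim9. Mlc1 was closest to S100b, Hes5 and Aldoc (each r = 0.97), Hepacam to Pantr1 (r = 0.96), Megf10 and Gabrg1, and Kcnj10 to Gria2 (r = 0.93), Igsf11 and Rhou. Dtna was closest to Astn1 (r = 0.96), Gm13111 and Kcnt1. Dmd was closest to Tmem136 (r = 0.98), Mfge8 and Fstl1, and Sntb1 to Cacna1h (r = 0.99), Kirrel and Ednra, a receptor for endothelin on mural cells. Within the 7 genes, Aqp4 and Mlc1 had r = 0.94 and Dmd and Sntb1 had r = 0.87, while Aqp4 and Sntb1 had r = 0.02.

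Astrocyte-like cells were not uniform in depth. A full-depth cluster of 898 cells met 12 of 12 astrocyte markers, and its median cell had 3783 to 8267 UMIs over the libraries. A low-depth cluster of 814 cells had 980 to 2256 UMIs. A cluster of 192 cells came almost wholly from the Lama4 experiment, with 1 to 5 cells in each library of the Lama5 experiment. The members were carried unequally by them. Among WT libraries of the Lama5 experiment, Aqp4 was 1234 and 1203 CPM in the full-depth cluster and 386 and 257 CPM in the low-depth cluster. Dtna went the other way, with 395 and 399 CPM against 758 and 1015 CPM, and so did Dmd, with 180 and 162 CPM against 396 and 444 CPM. Low-depth cells made up 53.0% and 50.8% of astrocyte-like cells in the 2 WT libraries of that experiment and 74.1% and 65.9% in Tek-Cre:Lama5-/-. Values within the clusters are therefore given beside the main results on the members.

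**Figure D3:**
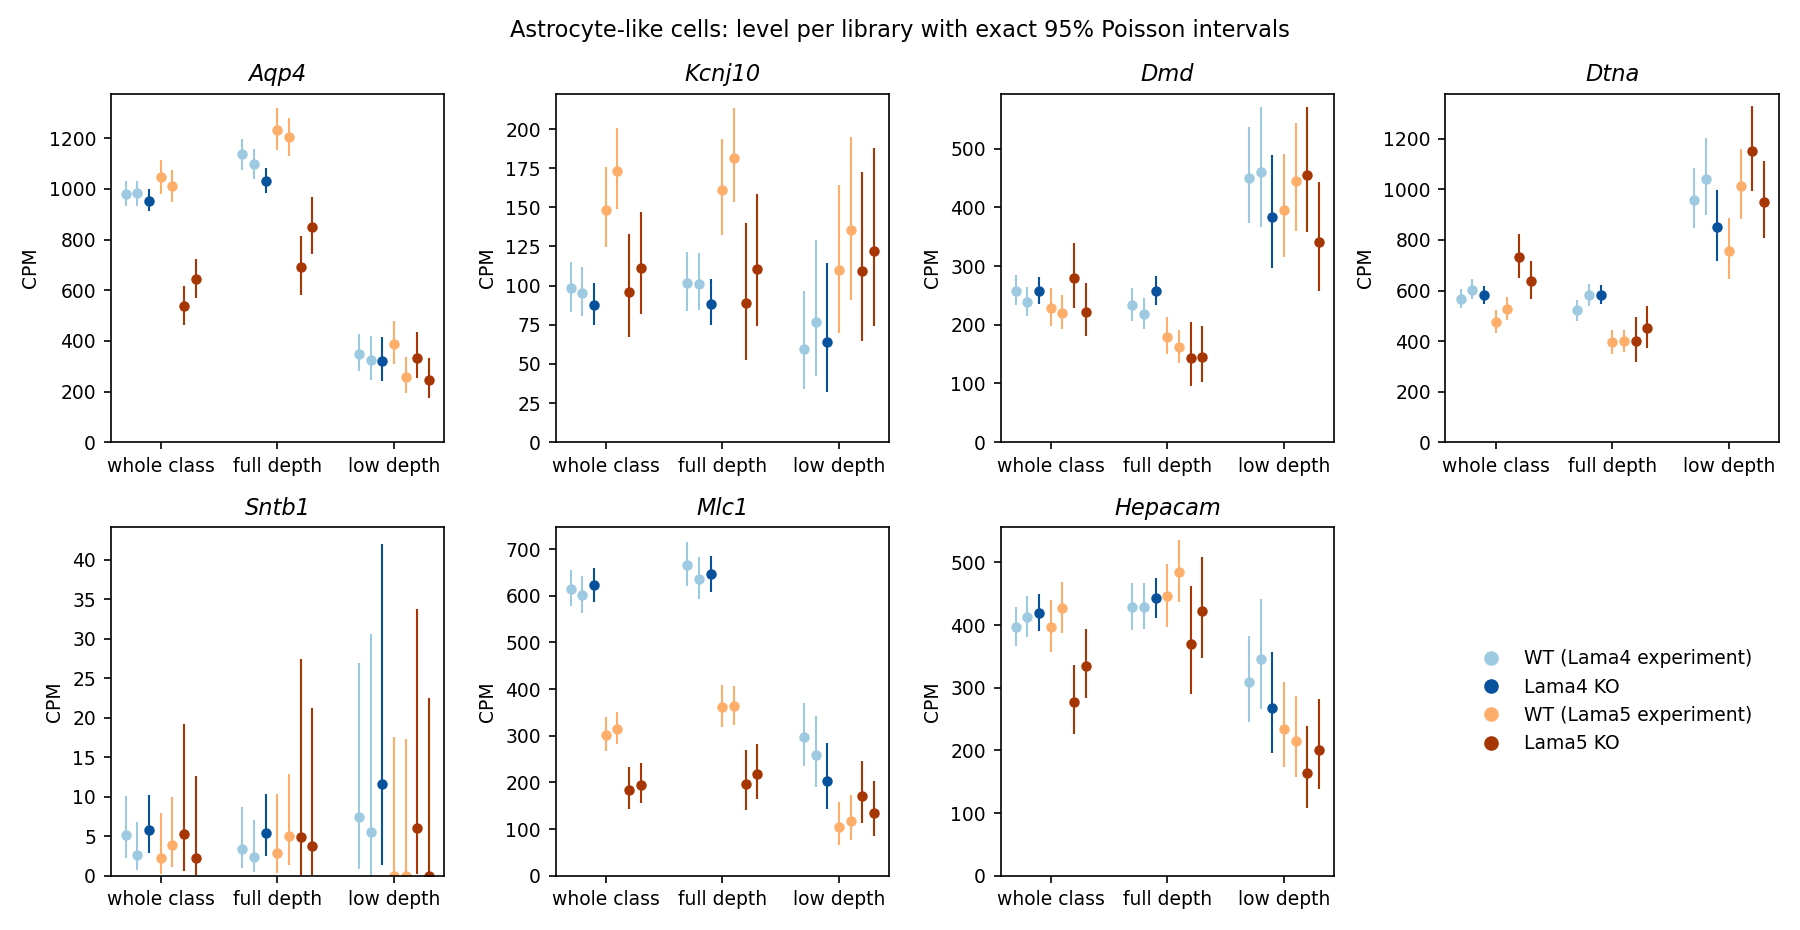
Level (CPM, linear axis) of each gene in all astrocyte-like cells and in their full-depth and low-depth clusters, 1 point per library with its exact 95% Poisson interval. Aqp4 and Mlc1 are lower in both Tek-Cre:Lama5-/- libraries than in both WT libraries for the whole class and the full-depth cluster, and Dtna and Dmd are higher in the low-depth cluster than in the full-depth cluster in every library.

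Summed over all astrocyte-like cells of Tek-Cre:Lama5-/- mice, Aqp4 and Mlc1 fell and Dtna rose against WT. Of the 6 members tested, 3 were called by edgeR's quasi-likelihood test at a Benjamini-Hochberg adjusted p under 0.05, against 143 of 8136 genes, 1.76% of all tested. Lower calls made up 1.01% of all genes and higher calls 0.75%. Sntb1 was not tested at 2 and 4 counts in WT and 2 and 1 in the knockout. The median log2 fold change of the 6 members was -0.52, and that of all genes -0.00053. Both knockout libraries lay below both WT libraries for Aqp4, Kcnj10, Mlc1 and Hepacam, as they did for 23.6% of all genes. For Dtna they lay above both, as for 21.4%. Within the low-depth cluster none of Aqp4, Mlc1 and Dtna was called, and within the full-depth cluster Dtna was not called. Low-depth cells held 23.1% and 20.9% of astrocyte-like UMIs in WT and 43.9% and 37.2% in the knockout. The part of this in the members' changes was not tested.

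For the channels, Aqp4 went from 1045 and 1010 CPM in WT to 536 and 644 CPM in the knockout, a log2 fold change of -0.78 ± 0.11 (SE, adjusted p = 3.3e-06). The adjusted p stayed under 0.05 in all 13 alternatives run on the whole class, with changes from -1.15 to -0.45. Within the full-depth cluster Aqp4 was 1234 and 1203 CPM in WT and 690 and 850 CPM in the knockout, a change of -0.60 ± 0.12 (adjusted p = 0.00081, where 0.644% of 6673 genes were called and 0.36% were called as lower). Without WT replicate 1 or WT replicate 2 that adjusted p was 0.33 or 0.066, with changes of -0.60 and -0.65. Over all fits without 1 library, those without a knockout library included, the full-depth Aqp4 change ran from -0.75 to -0.50. A fit without 1 library has 1 library in an arm, which is assumed to vary like the other arm. In the low-depth cluster the values were 386 and 257 CPM against 334 and 244 CPM, and the ranges overlapped (-0.22 ± 0.22, adjusted p = 0.83, where 0.749% of 3470 genes were called). Kcnj10 was 149 and 173 CPM in WT and 95.9 and 111 CPM in the knockout. This difference of -0.62 ± 0.18 missed the threshold (adjusted p = 0.068), with 36 and 49 counts in the knockout.

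For the second complex, Mlc1 was 301 and 315 CPM in WT and 184 and 195 CPM in the knockout, a log2 fold change of -0.69 ± 0.14 (adjusted p = 0.0040). Within the full-depth cluster it was 361 and 363 CPM against 197 and 217 CPM (-0.74 ± 0.17, adjusted p = 0.0094). Without any 1 of the 4 libraries in turn, the full-depth change stayed between -0.80 and -0.71 and its adjusted p between 0.067 and 0.36. In the low-depth cluster Mlc1 was 105 and 117 CPM in WT and 170 and 134 CPM in the knockout (0.39 ± 0.31, adjusted p = 0.76). On the whole class the Mlc1 call was lost without WT replicate 1 (adjusted p = 0.052) or WT replicate 2 (0.089), and with DESeq2 (0.096), while the change without 1 library ran from -0.73 to -0.67. Hepacam was 397 and 427 CPM in WT and 277 and 335 CPM in the knockout, and the difference of -0.41 ± 0.13 missed the threshold (adjusted p = 0.094). In the full-depth cluster it was 446 and 485 CPM against 369 and 423 CPM (-0.17 ± 0.14, adjusted p = 0.89).

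For the dystrophin complex, Dtna was 477 and 527 CPM in WT and 733 and 639 CPM in the knockout (0.45 ± 0.11, adjusted p = 0.021). The call was lost without WT replicate 1 (adjusted p = 0.35), WT replicate 2 (0.17) or knockout replicate 1 (0.23), and with DESeq2 (0.14), while the change without 1 library ran from 0.34 to 0.56. Within the clusters the Dtna call was absent. The full-depth values were 395 and 399 CPM against 399 and 450 CPM (0.16 ± 0.15, adjusted p = 0.90), and the low-depth values 758 and 1015 CPM against 1153 and 950 CPM (0.18 ± 0.15, adjusted p = 0.77). Dmd was 229 and 220 CPM in WT and 280 and 222 CPM in the knockout (0.16 ± 0.15, adjusted p = 0.68), and its sign was negative within each cluster, at -0.19 and -0.14.

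**Figure D4:**
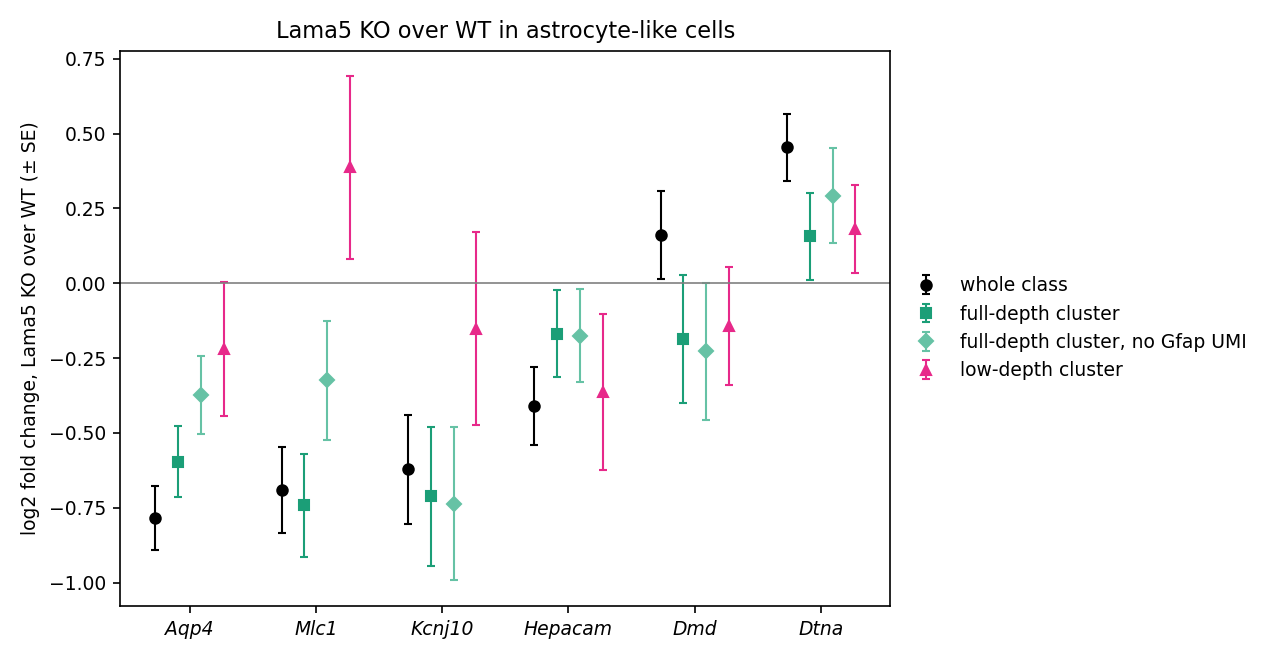
Log2 fold change of 6 members, Tek-Cre:Lama5-/- over WT, with its SE, in all astrocyte-like cells, in the full-depth cluster, in full-depth cells with no Gfap UMI and in the low-depth cluster. The Aqp4 change is -0.78 in the whole class, -0.60 in the full-depth cluster and -0.37 in full-depth cells with no Gfap UMI, and the Mlc1 change is positive in the low-depth cluster (0.39).

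Other astrocyte genes moved with these members, and their part in the result was not tested. Of the 12 astrocyte markers, Aldoc fell (-0.45 ± 0.09, adjusted p = 0.0022) and 11 did not pass, with a median of -0.12. Of 13 listed reactivity genes, 3 were tested and 2 were lower. Gfap, an intermediate filament of astrocytes, went from 299 and 351 CPM to 64.0 and 61.2 CPM (-2.37 ± 0.19, adjusted p = 1.4e-12). Vim, another intermediate filament, went from 219 and 218 CPM to 77.3 and 127 CPM (-1.06 ± 0.18, adjusted p = 0.00026). Cells with a Gfap UMI made up 34.4% and 32.3% of full-depth cells in WT and 12.5% and 17.9% in the knockout. Among full-depth cells with no Gfap UMI, an alternative chosen after seeing the data, Aqp4 differed by -0.37 ± 0.13 (adjusted p = 0.52) and Mlc1 by -0.32 ± 0.20 (adjusted p = 0.82), and 0.308% of 5202 genes were called. Which cells lack a Gfap UMI depends on the level of Gfap and on depth, so these sets are not matched between the groups.

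Some genes named here after their values were seen moved as well. Myoc was at 50.6 and 158 CPM in WT and at 0 in both knockout libraries, and S100a6 was at 191 and 239 CPM against 56.0 and 68.0 CPM. Gm42418, a locus that overlaps ribosomal RNA, was at 27315 and 27900 CPM in WT and at 46724 and 54514 CPM in the knockout. Ttr, the leading transcript of choroid plexus, was at 0 and 0.978 CPM against 203 and 163 CPM. The choroid plexus marker list held 0.0004% and 0.0009% of astrocyte-like UMIs in WT and 0.0211% and 0.0175% in the knockout, and the endothelial list 0.0220% and 0.0202% against 0.0227% and 0.0335%. The oligodendrocyte list, from cells that carry Dtna, Kcnj10 and Hepacam, held 0.0377% and 0.0451% against 0.0525% and 0.0614%. The part of these in the members' changes was not tested.

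The lists around the 7 genes gave few calls in astrocyte-like cells of the Lama5 experiment. Of the other dystrophin-dystroglycan complex genes, 7 of 15 were tested and 0 called, with a median log2 fold change of -0.07. Dag1, dystroglycan itself, differed by 0.05 ± 0.17 (adjusted p = 0.93). Of the genes that add the laminin-binding sugar to dystroglycan, 8 of 15 listed symbols were tested and 0 called. B4gat1 differed by -0.52 ± 0.25 (adjusted p = 0.33) and Dpm3 by -0.40 ± 0.27 (adjusted p = 0.52). Of 8 dystroglycan ligands, 3 were tested and 0 called. Lama2, the laminin alpha chain made by astrocytes and pericytes, differed by 0.68 ± 0.25 (adjusted p = 0.16) and Agrn, agrin, by 0.35 ± 0.22 (adjusted p = 0.50).

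Of 8 listed MLC1 and GlialCAM partners, 5 were tested and 1 called. Gpr37l1, an astrocyte receptor, was 1718 and 1797 CPM in WT and 1303 and 1290 CPM in the knockout (-0.43 ± 0.09, adjusted p = 0.0056), and within the full-depth cluster it differed by -0.14 ± 0.10 (adjusted p = 0.84). Of 10 other endfoot ion, water and coupling genes, 8 were tested and 0 called. Gja1, connexin 43, differed by -0.27 ± 0.09 (adjusted p = 0.14). Of 12 dissociation genes, Fos fell (-0.52 ± 0.10, adjusted p = 0.0025) and Jun (0.45 ± 0.09, adjusted p = 0.0034) and Dusp1 (0.59 ± 0.13, adjusted p = 0.0066) rose.

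Counted per cell, after each cell was thinned to 500 UMIs, 27.0% and 27.2% of astrocyte-like cells held an Aqp4 UMI in WT and 20.3% and 20.9% in the knockout. The shares did not overlap, and the exact permutation test gave p = 0.333, the smallest that 2 against 2 libraries allow. Dtna shares went from 24.9% and 28.7% to 35.0% and 31.8%. Mlc1 shares were 9.25% and 8.87% in WT and 8.63% and 9.48% in the knockout and overlapped, unlike the summed level. Thinned endothelial-like cells of the same 4 libraries held an Aqp4 UMI in 0.1% to 0.4% of cells. At the same thinned depth, a cell held UMIs of 0.968 and 1.06 members on average in WT and of 0.990 and 0.915 in the knockout, which overlapped. Without thinning, the median cell held UMIs of 3 members in each WT library and of 2 in each knockout library, where cells were shallower. Astrocyte-like cells were 3.53% and 4.12% of kept cells in WT and 2.53% and 2.65% in the knockout (exact permutation p = 0.333).

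In other classes of the Lama5 experiment, 3 member calls were made, all lower in the knockout. In endothelial-like cells Aqp4 was 4.3 and 4.7 CPM in WT (85 and 92 counts) and 1.7 and 2.4 CPM in the knockout (29 and 37 counts), a change of -1.05 ± 0.21 (adjusted p = 9.4e-05). Mlc1 had 47 and 38 counts in WT and 12 and 18 in the knockout (-1.12 ± 0.31, adjusted p = 0.0056). In that class 20.3% of 13058 genes were called, and 9.24% were called as lower. Scaled by library totals alone, the endothelial-like calls changed from 1443 higher and 1206 lower to 780 higher and 2894 lower, and both members stayed lower. Over the Lama5 experiment these levels were 0.379% (Aqp4) and 0.589% (Mlc1) of the astrocyte-like levels, and the astrocyte marker list held 0.020% and 0.021% of endothelial-like UMIs in WT and 0.014% and 0.015% in the knockout. Htra1 (81.9 CPM over the Lama5 experiment), Slc1a2 (28.2 CPM) and Plpp3 (28.1 CPM) made the largest parts of the list's sum, followed by Fgfr3 (13.1 CPM). Htra1, Plpp3 and Fgfr3 stood at 2.83%, 0.951% and 2.37% of their astrocyte-like levels, and Slc1a2 at 0.410%. Of the 12 markers taken singly, 11 were lower in both knockout libraries than in both WT libraries in endothelial-like cells. The share of all endothelial-like genes lying this way was not counted. Slc1a2, a glutamate transporter, was 33.6 and 35.8 CPM against 20.7 and 19.6 CPM, and Aldoc 10.7 and 11.5 CPM against 4.9 and 6.7 CPM. The part of these changes in the result was not tested. The endothelial-like Mlc1 call was lost without WT replicate 1 (adjusted p = 0.070), without knockout replicate 1 (0.19) and with DESeq2 (0.26).

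In oligodendrocyte-like cells Kcnj10 was 371 and 362 CPM in WT and 312 and 318 CPM in the knockout (-0.18 ± 0.04, adjusted p = 0.0012), where 15.3% of 11272 genes were called and 6.48% were called as lower. Hepacam stood at 379 and 373 CPM against 361 and 362 CPM (-0.02 ± 0.04, adjusted p = 0.80), and Dtna at 113 and 123 CPM against 119 and 104 CPM. In pericyte-like cells, where 0.419% of 6201 genes were called, Dmd was 514 and 557 CPM in WT and 428 and 423 CPM in the knockout, and the difference of -0.27 ± 0.12 did not pass (adjusted p = 0.45). In smooth muscle-like cells, where 5.15% of 9613 genes were called, Sntb1 was 109 and 114 CPM against 88.4 and 90.7 CPM (-0.23 ± 0.10, adjusted p = 0.23), and Dmd 452 and 439 CPM against 375 and 427 CPM (-0.06 ± 0.06, adjusted p = 0.70). In microglia-like cells, where 14% of 9574 genes were called, Aqp4, Kcnj10 and Hepacam were tested and 0 passed.

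Ependymal-like cells numbered 35 to 50 per library of the Lama5 experiment and were not tested. Aqp4 was 813 and 791 CPM in WT and 841 and 744 CPM in the knockout, so the groups overlapped, and the ratio of summed levels was 0.980 (exact 95% interval 0.887 to 1.08, counting error only). The Mlc1 ratio was 0.885 (0.791 to 0.989). Whether the knockout difference itself differed between astrocyte-like and ependymal-like cells was not tested.

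In Lama4-/- mice the members of astrocyte-like cells stood close to their own WT. There is 1 knockout library, so no test was made, and intervals cover counting error only. Aqp4 was 954 CPM against 981 and 982 CPM, a ratio of 0.972 (exact 95% interval 0.917 to 1.03). Kcnj10 was 87.6 CPM against 98.2 and 95.3 CPM, a ratio of 0.905 (0.744 to 1.10). Mlc1 was 622 CPM against 615 and 602 CPM (1.02, 0.95 to 1.10) and Hepacam 419 CPM against 397 and 412 CPM (1.04, 0.947 to 1.13). Dtna (0.995, 0.922 to 1.07) and Dmd (1.04, 0.923 to 1.16) were within their WT range, and Sntb1 had 11 counts against 8 and 4. The interval of each of the 7 ratios included 1. Mlc1 and Hepacam lay above both WT libraries, as did Sntb1, where 35.3% of 10132 genes did. Aqp4 and Kcnj10 lay below both, where 32.9% did.

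Within the full-depth cluster of the Lama4 experiment, Aqp4 was 1031 CPM against 1136 and 1097 CPM, a ratio of 0.924 (0.869 to 0.982), and Dmd 258 CPM against 234 and 218 CPM, a ratio of 1.14 (1.01 to 1.30). Gfap in that cluster was 319 CPM in the knockout and 518 and 550 CPM in WT, and its part in the Aqp4 value was not tested. Low-depth cells were 16.7% of astrocyte-like cells in the knockout and 32.0% and 24.5% in WT.

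In the other classes of the Lama4 experiment, Dtna in smooth muscle-like cells was 64.3 CPM against 38.3 and 41.5 CPM, a ratio of 1.61 (1.29 to 2.00), where 38.9% of 9973 genes lay above both WT libraries. Dmd in pericyte-like cells was 833 CPM against 734 and 792 CPM (1.09, 0.989 to 1.20), where 36.9% of 8693 genes lay above both, and Dmd in smooth muscle-like cells 392 CPM against 401 and 384 CPM (0.999, 0.920 to 1.08). In microglia-like cells Mlc1 (1.71, 1.10 to 2.64) and Hepacam (1.87, 1.09 to 3.16) were above both WT libraries at under 5 CPM, as were 46.1% of all genes. Over the Lama4 experiment these levels were 0.552% and 0.565% of the astrocyte-like levels, against a median of 0.450% for the astrocyte markers. Of these 12 markers, 9 were also above both WT libraries in microglia-like cells, such as Cldn10 at 6.9 CPM against 2.6 and 3.4 CPM, and their part was not tested. In endothelial-like cells Aqp4 was 2.8 CPM against 2.2 and 2.3 CPM (1.26, 0.85 to 1.85), where 52.1% of genes lay above both, as did 9 of the 12 astrocyte markers.

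The WT pools of the 2 experiments gave a measure of how far astrocyte-like members differ between pools of 1 genotype, though experiment and pool cannot be told apart. The test called 12.1% of 9771 genes and 2 of 6 members. Mlc1 was 615 and 602 CPM in the Lama4 experiment and 301 and 315 CPM in the Lama5 experiment (-0.96 ± 0.10, adjusted p = 6.4e-08). Kcnj10 was 98.2 and 95.3 CPM against 149 and 173 CPM (0.76 ± 0.13, adjusted p = 0.00017). Both differences also passed within the full-depth cluster (Mlc1 -0.84 ± 0.10, adjusted p = 1.5e-05; Kcnj10 0.77 ± 0.14, adjusted p = 0.0012; 8.16% of genes called) and within the low-depth cluster (-1.23 ± 0.25, adjusted p = 0.0016; 0.98 ± 0.32, adjusted p = 0.046; 11.7% called). The knockout Kcnj10 values of 95.9 and 111 CPM thus overlapped the WT range of the Lama4 experiment. Aqp4 differed by 0.09 ± 0.08 (adjusted p = 0.54), and all 4 WT libraries lay between 981 and 1045 CPM, above both Tek-Cre:Lama5-/- libraries. Of the 12 dissociation genes, 9 were higher and 2 lower in the Lama5 experiment, with a median of 1.70, and their part in the members' differences was not tested.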

How the data were processed

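The files hold raw UMI counts per gene and barcode as deposited by the authors, made with Cell Ranger per the file headers. The submitters' processing notes list Cell Ranger, Seurat 3.1 and mm10. Cells with at least 500 genes and under 15% mitochondrial UMIs were kept, 3015 likely doublets were removed, and the rest were clustered on 2000 variable genes and 30 components. The 7 genes and 79 other listed genes were not used to cluster. Clusters were named from 3 or more fixed markers. Raw counts were summed per class and library and tested with edgeR 4.0.16 (quasi-likelihood, TMM, default filter) over all genes, with Benjamini-Hochberg adjustment, for classes with at least 50 cells per library. DESeq2 1.42.0 was an alternative. The fit was tested on simulated data. The members and lists were chosen with earlier results of these data known. The listed genes named are those called in astrocyte-like cells (Lama5 experiment, up to 4 per list), otherwise the 2 highest, and 3 genes most like each member. Some genes this rule names are not reported here. The labels do not say whether replicate numbers pair libraries, and the main fits used no pairing.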

Additional observations from a re-analysis of the deposited data

Results flagged for a closer look

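For some members the Lama4-/- library lay on one side of both of its WT libraries, and both Tek-Cre:Lama5-/- libraries lay on the other side of theirs. The difference between the experiments was not tested, and the share of all genes with this double pattern was not counted. In the Lama4 experiment 35.3% of astrocyte-like genes lay above both WT libraries. That share was 52.1% in endothelial-like, 46.1% in microglia-like and 36.9% in pericyte-like cells. In the Lama5 experiment 23.6% of astrocyte-like genes lay below both WT libraries, and the other classes were not counted. In astrocyte-like cells Mlc1 had a log2 difference of 0.032 in the Lama4 experiment and -0.69 in the Lama5 experiment, and Hepacam 0.051 and -0.41. The intervals of both Lama4 ratios included 1, and the Lama5 difference of Hepacam missed the threshold. In endothelial-like cells Aqp4 had 0.33 and -1.05, and Mlc1 0.42 and -1.12, at levels under 5 CPM. Of the 12 astrocyte markers in that class, 9 were above both WT libraries in Lama4-/- and 11 below both in the Lama5 experiment, and their part was not tested. In microglia-like cells Hepacam had 0.91 and -0.086, also at low counts. In pericyte-like cells Dmd had 0.12 and -0.27. The Lama5 differences in these last classes did not pass the threshold.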

How the results depend on the processing

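The count of genes called in astrocyte-like cells of the Lama5 experiment (143) was unstable. It was 43 with DESeq2, 235 with the replicate number as a block, 1159 with doublets kept, 38 with stricter cell filters, 1459 with members and lists used to cluster, 58 to 156 without 1 library in turn, and, in alternatives chosen after seeing the data, 43 in the full-depth cluster, 26 in the low-depth cluster, 16 in full-depth cells with no Gfap UMI, 14 with DESeq2 in the full-depth cluster and 13, 24, 33 and 40 there without 1 library. The labels do not say whether replicate numbers pair libraries. Deviations of same-numbered libraries correlated at 0.0153 in astrocyte-like and -0.00762 in endothelial-like cells. No pairing was visible, but counting error can hide a shared deviation, so these values cannot decide it.

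DESeq2 gave 826 calls in endothelial-like, 6 in pericyte-like, 162 in smooth muscle-like, 412 in microglia-like and 434 in oligodendrocyte-like cells, and 277 between WT pools. Pericyte-like calls (26) became 51 with no filter, 70 with the block and 15 at resolution 2. Smooth muscle-like calls (495) became 22 with no filter and 1 to 463 without 1 library, with 1 call left without either knockout library. Without 1 library microglia-like calls ran from 844 to 1057 and oligodendrocyte-like calls from 1134 to 1586. Between WT pools, stricter filters gave 623, the full-depth cluster 736 and the low-depth cluster 480 calls. Scaled by library totals alone, higher and lower calls were 16 and 15 in pericyte-like (18 and 8 before), 189 and 312 in smooth muscle-like (388 and 107), 499 and 818 in microglia-like (841 and 499), and 822 and 1106 in oligodendrocyte-like cells (993 and 730).

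In the Lama5 experiment, Aqp4 lost its call in the low-depth cluster (-0.22) and in full-depth cells with no Gfap UMI (-0.37). Within the full-depth cluster, without 1 library, it was -0.60 and -0.65 without a WT library and -0.50 and -0.75 without a knockout library. Mlc1 lost its call with DESeq2 (-0.70), at resolution 2 (-0.52), with stricter filters (-0.56), in full-depth cells with no Gfap UMI (-0.32) and with DESeq2 in the full-depth cluster (-0.76), and was positive in the low-depth cluster (0.39). Without 1 library Mlc1 ran from -0.73 to -0.67, and was -0.76, -0.77, -0.71 and -0.80 in the full-depth cluster. Dtna lost its call with DESeq2 (0.45), doublets kept (0.18), resolution 2 (0.40), members used to cluster (0.17), the full-depth cluster (0.16, or 0.14 with DESeq2), the low-depth cluster (0.18) and full-depth cells with no Gfap UMI (0.29), and was -0.0070 with stricter filters. Without 1 library Dtna ran from 0.34 to 0.56, and was 0.13 without either WT library and 0.20 and 0.080 without a knockout library in the full-depth cluster. Kcnj10 passed the threshold with no filter (-0.67), the block (-0.63), doublets kept (-0.74) and members used to cluster (-0.63), and Hepacam under the same settings (-0.46, -0.41, -0.64 and -0.68). The sign of Dmd differed from that reported in 4 of 13 whole-class alternatives. The cause was not tested.

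In the Lama4 experiment, the Aqp4 ratio was 1.03 at resolution 2 and 0.895 in full-depth cells with no Gfap UMI. Low-depth ratios were 0.845 for Dmd, 0.856 for Dtna, 0.724 for Mlc1 and 0.827 for Hepacam, which was 0.929 in full-depth cells with no Gfap UMI. The astrocyte-like Sntb1 level was 2.27 CPM with stricter filters. Depth limits Sntb1, and low-depth cells for every member.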

Other observations

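Other subunits of the dystrophin complex, named here after their values were seen, were divided over the classes as well. Utrn, utrophin, the relative of dystrophin, stood at 738 CPM over endothelial-like cells (700 to 767 CPM over the 7 libraries), at 826 CPM over smooth muscle-like cells (662 to 998 CPM) and at 72.5 CPM over astrocyte-like cells (56.3 to 107 CPM). Dmd had the other order between endothelial-like (10.3 CPM) and astrocyte-like cells (245 CPM). Sntb2, a syntrophin, stood at 38.2 CPM over endothelial-like cells (34.6 to 47.7 CPM) and 63.0 CPM over pericyte-like cells (44.0 to 81.3 CPM), against 7.5 CPM over astrocyte-like cells. Dag1, dystroglycan, stood at 277 CPM over pericyte-like cells, 283 CPM over smooth muscle-like cells, 132 CPM over astrocyte-like cells and 90.4 CPM over endothelial-like cells.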
